A study of Homo sapiens with 2 samples.

Results

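Immediate early transcription factors were read in the RNA-seq data of Ramos cells and of Ramos640 cells. The group holds 10 genes, which are JUN, JUNB, JUND, FOS, FOSB, EGR1, EGR2, EGR3, NR4A1 and CREB1. They were chosen by name as transcription factors downstream of protein kinase C (PKC) and MAP kinases, by a rule that uses no measured value, though with earlier results of these data known, and each has 1 of the 37122 rows of the count table. Ramos is a human Burkitt's lymphoma (BL) cell line of B-cell origin. Ramos640 was derived from it by culture in escalating rituximab, an antibody against CD20, with 20% normal human serum (NHS) as a source of complement. Its resistance was maintained by rituximab and 20% NHS every 21 days, with rituximab at 640 μg/mL in the methods and 640 mg/mL in the sample labels. Both lines grew in RPMI-1640 medium with fetal bovine serum and penicillin/streptomycin, and the time between the last rituximab exposure and RNA harvest is not given in the sources used here. RNA of 3 passages was pooled for each line before library construction, so there was 1 library per cell line, no difference below has a replicate check, and no p-value is given.

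The Ramos library held 38030090 reads and the Ramos640 library 30871826. Where no read was counted, up to 3 remain possible, or 0.0789 CPM (reads per 1000000 reads of the library) in Ramos and 0.0972 CPM in Ramos640. B-cell genes were abundant in both libraries. CD79B, a chain of the B-cell receptor, had 69495 and 82890 reads, and CD74, the invariant chain of MHC class II, had 39745 and 47255. MS4A1, which encodes CD20, had 9654 reads in Ramos and 1904 in Ramos640, and the B-cell factor gene PAX5 had 4624 and 2039. The summed level of 6 T-cell markers was 0.158 CPM in Ramos and 1.04 CPM in Ramos640, where CD3E (1 and 31 reads) gave nearly all of it and no other T-cell marker had more than 5 reads. The sum was 0.526 and 0.551 CPM for 6 monocyte markers, with S100A8 (13 and 4 reads) the most read, and 1.13 and 0.518 CPM for 5 epithelial markers, with KRT18 (19 and 11 reads) the most read.

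Immediate early genes are transcribed within minutes of a stimulus, without new protein synthesis, and most of their mRNAs and proteins are short-lived. JUN and FOS proteins pair through leucine zippers to form AP-1, a dimer that binds DNA, and EGR proteins bind GC-rich sites through zinc fingers. NR4A1 is an orphan nuclear receptor that is induced by antigen receptor signalling in lymphocytes. CREB1 differs from most of the others because its protein is present before a stimulus and is activated by phosphorylation. It then drives transcription of FOS and other immediate early genes. In B cells, the B-cell receptor reaches these factors through PKC, RAS and the ERK, JNK and p38 kinases.

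The promoters of JUN, FOS, EGR2 and CREB1 are shown because the scaled counts of the first 3 genes differed by more than 1.5-fold between the libraries and CREB1 is the most abundant member by reads. Each sequence is the 250 bases before the RefSeq transcription start, placed on GRCh37 by exact match. They lie at chr1:59249720-59249969 on the minus strand for JUN, chr14:75745281-75745530 on the plus strand for FOS, chr10:64576127-64576376 on the minus strand for EGR2 and chr2:208394436-208394685 on the plus strand for CREB1. Capitals mark the letters TGACG on either strand (the half-site of the cAMP response element, CRE, which CREB1 binds), the EGR site GCGNGGGCG, and the CArG box, which serum response factor binds.
JUN: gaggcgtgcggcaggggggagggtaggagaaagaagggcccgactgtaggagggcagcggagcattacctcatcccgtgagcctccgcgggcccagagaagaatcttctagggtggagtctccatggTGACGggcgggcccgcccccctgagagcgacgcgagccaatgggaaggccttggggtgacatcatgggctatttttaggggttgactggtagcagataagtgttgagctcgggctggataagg
FOS: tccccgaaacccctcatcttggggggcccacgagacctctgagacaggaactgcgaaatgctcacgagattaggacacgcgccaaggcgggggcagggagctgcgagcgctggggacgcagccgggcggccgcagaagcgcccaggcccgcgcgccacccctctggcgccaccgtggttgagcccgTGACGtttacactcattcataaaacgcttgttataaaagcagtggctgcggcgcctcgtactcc
EGR2: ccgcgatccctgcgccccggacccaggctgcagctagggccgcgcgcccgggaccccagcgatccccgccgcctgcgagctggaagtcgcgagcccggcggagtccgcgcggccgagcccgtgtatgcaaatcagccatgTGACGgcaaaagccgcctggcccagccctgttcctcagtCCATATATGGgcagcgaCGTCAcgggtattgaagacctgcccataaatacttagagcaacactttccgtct
CREB1: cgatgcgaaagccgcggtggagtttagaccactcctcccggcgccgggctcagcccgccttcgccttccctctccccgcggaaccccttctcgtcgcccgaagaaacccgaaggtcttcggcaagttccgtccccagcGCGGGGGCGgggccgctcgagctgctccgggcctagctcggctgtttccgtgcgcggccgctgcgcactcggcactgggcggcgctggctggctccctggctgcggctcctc

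The half-site TGACG was present in 7 of the 9 member promoters searched (EGR3 was not searched) and in 21.2% of 34788 RefSeq promoters of the same length. In FOS it starts 64 bases before the start site and in FOSB 60 bases before it. The full CRE TGACGTCA, which contains the half-site on both strands, was found in JUND alone among the 9, and in 1.64% of all promoters. The CArG box was found in EGR1 and EGR2 and in 1.17% of all promoters, and EGR1 holds it at 2 positions. The EGR site was found in CREB1 and EGR1 and in 8.41% of all promoters, and the AP-1 site TGANTCA in none of the 9 and in 6.59% of all. A match to these letters is a description of the window, not of binding. The lack of a match does not exclude a variant of the site or a site outside the window.

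The members ranged from well read to absent, and for those with few reads a small difference between the libraries cannot be told from a large one. Over both libraries, CREB1, JUND, NR4A1 and JUNB had more than 100 reads each, FOSB, JUN and EGR1 had 10 to 99, FOS and EGR2 had under 10, and EGR3 had none. The comparison was made on counts divided by median-of-ratios size factors (1.14 for Ramos and 0.876 for Ramos640), as a log2 fold change of Ramos640 over Ramos with 1 added to each scaled count. Its 95% interval was derived from the share of the gene's reads that fell in Ramos640 (Clopper-Pearson) and covers counting error only. Of the 7 members with at least 10 reads, 1 (JUN) was lower in Ramos640 by more than 1.5-fold, while 17.3% of the 18778 genes with that many reads were lower by this much. None of the 7 was higher by more than 1.5-fold, against 14.6% of all genes. The log2 fold change was below 0 for 6 of the 7, against 51.2% of all genes, and their median was -0.20, against -0.015 for all genes. The interval lay below 0 for 3 members (CREB1, JUND and NR4A1) and above 0 for none, against 31.6% and 29.6% of all genes. These 3 were among the 4 members with at least 100 reads, and of all genes with that many reads 37.2% had an interval below 0. With 7 members, these counts are given as a description and were not tested against the background.

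**Figure D1:**
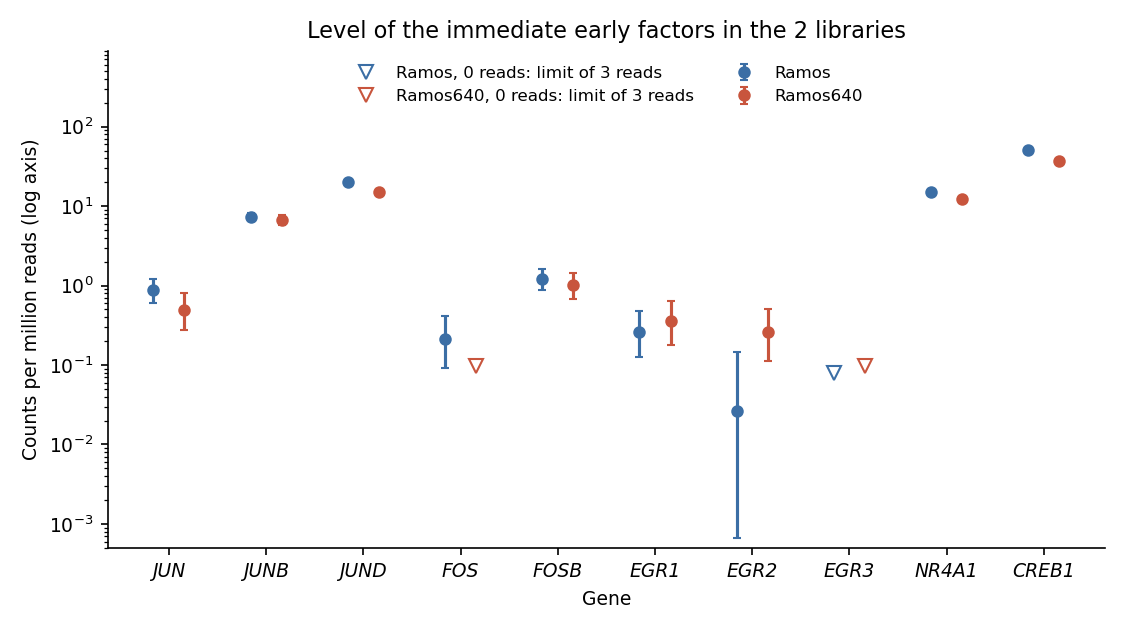
Level in CPM (log axis) of the 10 genes in the Ramos library (blue) and the Ramos640 library (red). Bars are 95% Clopper-Pearson intervals (counting error only), and open triangles mark a count of 0 at its limit of 3 reads. CREB1, JUND, NR4A1 and JUNB lie above 6 CPM in both libraries and the other genes below 1.3 CPM.

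The JUN family, whose proteins form AP-1 with each other or with FOS proteins, was carried by JUND in both libraries. JUND, on chromosome 19 of GRCh37 from 18390504 to 18392432, encodes the JUN protein that is present in most resting cells. Ramos held 754 of its reads and Ramos640 467. After scaling it was 1.24-fold lower in Ramos640 (log2 fold change -0.31, interval -0.48 to -0.14). JUNB, on chromosome 19 from 12902300 to 12904129, encodes an AP-1 subunit that can restrain JUN activity. With 275 reads in Ramos and 206 in Ramos640, its scaled levels were nearly the same (log2 fold change -0.036, interval -0.30 to 0.23). JUN, on chromosome 1 from 59242517 to 59249720, encodes c-Jun, the strongest activator of the family and a target of JNK. It was read 33 times in Ramos and 15 times in Ramos640, and was 1.65-fold lower in Ramos640 (log2 fold change -0.72, interval -1.74 to 0.16). JUN was the only one of the 7 members past the 1.5-fold limit, but its interval included 0, so the difference was not detectable at this depth. Among the 5101 genes with 10 to 99 reads, 30.0% were lower by more than 1.5-fold. With 10 added to each scaled count in place of 1, the log2 fold change of JUN was -0.52, within the limit.

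Shares within a library do not depend on how the libraries are scaled. JUND held 71.0% of the JUN family reads in Ramos (interval 68.2% to 73.7%) and 67.9% in Ramos640 (64.2% to 71.4%). JUNB held 25.9% (23.3% to 28.6%) and 29.9% (26.5% to 33.5%). JUN held 3.11% (2.15% to 4.34%) and 2.18% (1.23% to 3.57%). The intervals of the 2 libraries overlapped for each gene, and the odds ratios between libraries included 1 for all 3 pairs. The odds of a JUNB read against a JUND read were 1.21 times those in Ramos (exact interval 0.97 to 1.51), those of JUN against JUND 0.734 times (0.366 to 1.41) and those of JUN against JUNB 0.607 times (0.298 to 1.19). The 3 genes together had 1062 and 688 reads, which puts the log2 fold change of the sum at -0.24 (interval -0.39 to -0.11).

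**Figure D2:**
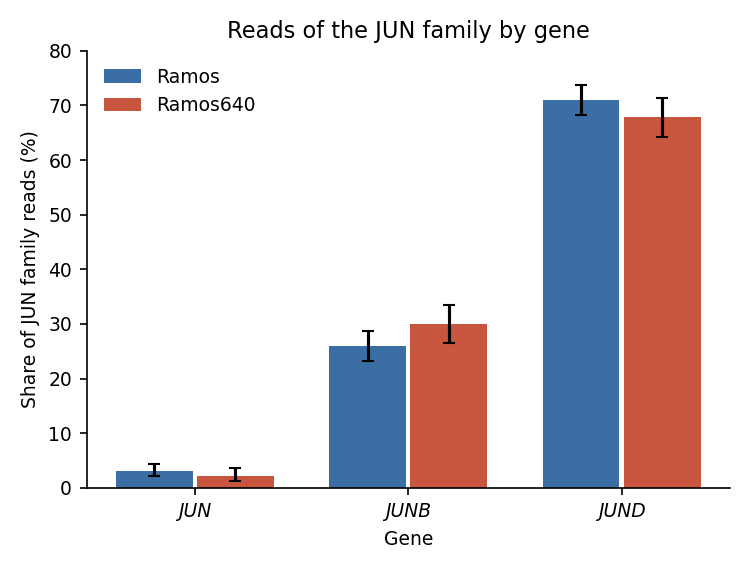
Share of the reads of JUN, JUNB and JUND that each gene held, in percent, in the Ramos library (1062 reads, blue) and the Ramos640 library (688 reads, red). Bars start at 0 and error bars are 95% Clopper-Pearson intervals, which overlap between the libraries for each gene.

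The FOS family was scarce in both libraries. FOS, on chromosome 14 from 75745529 to 75748933, encodes c-Fos, the partner of JUN proteins whose transcription is the classic immediate early response. Ramos held 8 FOS reads and Ramos640 held 0. With the floor of 3 reads in place of 0 in Ramos640, and the 8 Ramos reads taken as exact, FOS was 2.05-fold lower there. Its counting interval, which covers the error of both counts, puts it at least 1.31-fold lower. FOSB, on chromosome 19 from 45971253 to 45978437, encodes a related partner with 46 reads in the Ramos library and 31 in that of Ramos640 (log2 fold change -0.18, interval -0.89 to 0.50). The FOS reads thus differed beyond counting error, and a difference in FOSB was not detectable at this depth. FOS gave 14.8% of the FOS and FOSB reads in Ramos (interval 6.62% to 27.1%) and 0 of 31 in Ramos640 (upper limit of the interval 11.2%). The odds of a FOS read against a FOSB read in Ramos640 were at most 0.951 times those in Ramos, by the upper limit of the exact interval. Both rest on the 8 FOS reads of Ramos. FOS is too sparse for the minimum of 10 reads and enters none of the counts above. The share of all genes under 10 reads whose interval lay below 0 was not computed.

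The EGR family was the scarcest of the group. EGR1, on chromosome 5 from 137801168 to 137804992, encodes a zinc finger factor induced through ERK and serum response factor, and EGR2, on chromosome 10 from 64571756 to 64578927, and EGR3, on chromosome 8 from 22545172 to 22550993, encode relatives that are induced in activated lymphocytes. EGR1 was read 10 times in Ramos and 11 times in Ramos640 (log2 fold change 0.47, interval -0.86 to 1.91). EGR2 had 1 read in Ramos and 8 in Ramos640, a ratio of scaled counts of 10.4 with no pseudocount (counting interval 1.40 to 462) and of 5.40 with 1 added to each scaled count. EGR3 had no reads in either library, which allows up to 0.0789 and 0.0972 CPM. The EGR reads summed to 11 in Ramos and 19 in Ramos640, and the log2 fold change of this sum was 1.09 (interval 0.025 to 2.39). Scaling by total counts shifted the median log2 fold change of all genes by -0.080, more than the distance of this lower limit from 0. The sum rests on EGR2, which is below the minimum of 10 reads. EGR2 supplied most of the additional reads.

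NR4A1, on chromosome 12 from 52416616 to 52453291, stood apart from the EGR genes by its level, with 567 reads in Ramos and 378 in Ramos640. It was 1.15-fold lower in Ramos640 (log2 fold change -0.20), and its interval, from -0.40 to -0.014, lay just below 0. Its relatives NR4A2 (1 and 2 reads) and NR4A3 (3 and 3 reads) were close to the limit of detection.

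CREB1, on chromosome 2 from 208394461 to 208470712, was the member with the most reads, 1918 in Ramos and 1130 in Ramos640. It was 1.30-fold lower in Ramos640 (log2 fold change -0.38), and its interval of -0.49 to -0.28 was the narrowest of the group. The fold changes of these libraries moved with the GC content of the transcript, and CREB1 has the lowest GC content of the 10 genes, 35.9%. The running median over protein-coding genes was -0.37 at that GC content, so CREB1 was only 0.016 on the log2 scale below genes of like composition. The other 6 members with at least 10 reads have a GC content from 55.3% to 69.9%, where the running median lay between 0.14 and 0.20. Relative to it, JUND was at -0.45, NR4A1 at -0.41, FOSB at -0.37, JUNB at -0.21 and JUN at -0.89, all further below 0 than without it, and EGR1 was at 0.33. The part of GC content in these differences was not tested.

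**Figure D3:**
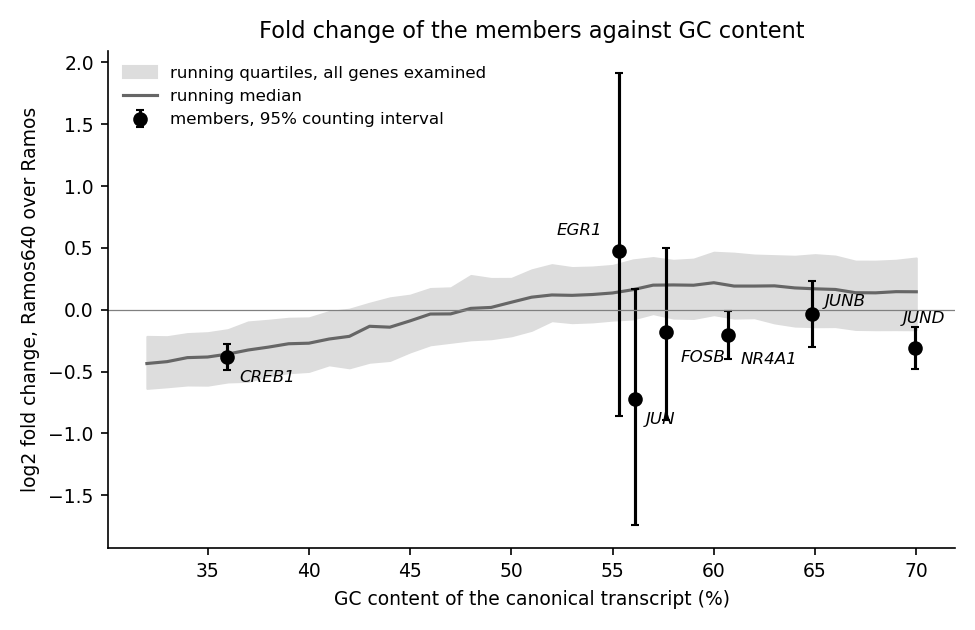
Log2 fold change of Ramos640 over Ramos against the GC content of the canonical transcript (percent). Black points are the 7 members with at least 10 reads, with 95% counting intervals, the line is a running median over other protein-coding genes and the band the running quartiles. CREB1, at 35.9% GC, lies on the line, and JUNB lies within the band. JUN, FOSB, NR4A1 and JUND (at 69.9% GC) lie below the band and EGR1 above it. The bar of each member outside the band reaches into it.

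**Figure D4:**
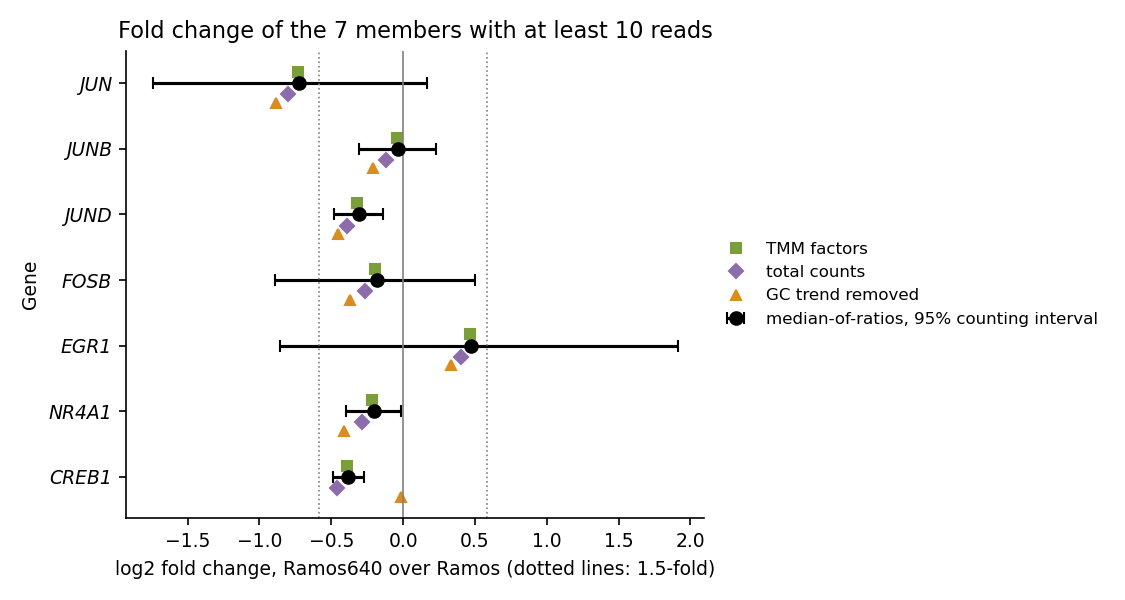
Log2 fold change of Ramos640 over Ramos for the 7 members with at least 10 reads. Black points with bars are the median-of-ratios values with 95% counting intervals, coloured points are the values with TMM factors, with total counts and with the GC trend removed, and dotted lines mark 1.5-fold. Only JUN is past 1.5-fold, and removing the GC trend moves CREB1 from -0.38 to -0.016.

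Levels of different genes were compared as CPM per kilobase of merged exon (RPKM). In Ramos the order was JUND (10.3), CREB1 (4.16), JUNB (3.95), NR4A1 (2.04), JUN (0.239), FOSB (0.218), EGR1 (0.0838), FOS (0.0660), EGR2 (0.00709) and EGR3 (0). In Ramos640 it was JUND (7.84), JUNB (3.65), CREB1 (3.02), NR4A1 (1.68), FOSB (0.181), JUN (0.134), EGR1 (0.114), EGR2 (0.0699), and FOS and EGR3 at 0. JUND led in both libraries, with intervals (9.56 to 11.0 in Ramos, 7.15 to 8.59 in Ramos640) above those of all other members. CREB1 and JUNB changed places between the libraries, and their intervals overlapped in both, from 3.97 to 4.35 and from 3.50 to 4.45 in Ramos and from 2.84 to 3.20 and from 3.17 to 4.18 in Ramos640. JUN and FOSB also overlapped in both libraries. With merged exon as length, the counting interval of NR4A1 was separated from those of its neighbours in both orders. NR4A1 has 7295 bases of merged exon and a canonical transcript of 2485 bases, and the order by canonical length was not examined.

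Most members have few exons, a feature that had no part in their choice. Their canonical transcripts have a median of 2 exons, while 12121 protein-coding genes with at least 10 reads have a median of 9. JUN, JUNB and JUND consist of 1 exon each, as do 2.48% of those genes. CREB1 (8 exons) and NR4A1 (7 exons) have the most. The median length of the canonical transcripts was 3058 bases against 3272, and that of CREB1 is 10095 bases. The median GC content was 55.7%, against 48.5%. The letters TATTTAT are the core of AU-rich elements that shorten mRNA life. They occur in the transcripts of 5 of the 10 genes (JUN, JUND, FOS, FOSB and CREB1) and in 37.7% of the protein-coding genes examined. The whole canonical transcript was searched, so a match need not lie in an AU-rich element.

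The other genes of the pathway came from lists written with earlier results of these data known. Of 9 other AP-1 subunits, 4 were lower in Ramos640 by more than 1.5-fold, 1 was higher and 4 were within this limit, with a median log2 fold change of -0.31. Of all genes with at least 10 reads, 17.3% were lower and 14.6% higher by as much. BATF3, which pairs with JUN proteins in lymphoid and dendritic cells, had 228 and 73 reads (log2 fold change -1.25, interval from -1.66 to -0.88). BATF, the relative that acts with JUN and IRF4 in B cells, had 51 and 67 reads (0.76, interval from 0.23 to 1.33), and relative to the GC trend it was at 0.56, within the limit. The 3 other subunits that were lower (FOSL1, FOSL2 and BATF2) had 60 reads or fewer in each library, and the intervals of FOSL1 and BATF2 included 0. Among genes with 10 to 99 reads, 30.0% were lower by as much. JDP2, a repressor of AP-1 and CRE sites, was the most abundant by reads, with 1445 and 982 reads (-0.18, interval from -0.30 to -0.058).

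Of the 10 relatives and coactivators of CREB1, 2 were lower by more than 1.5-fold and none was higher, while the median log2 fold change was 0.16. Of all genes with at least 10 reads, 17.3% were lower and 14.6% higher by as much. CRTC3, a coactivator that enters the nucleus and binds CREB1 once it is dephosphorylated, had 96 reads in Ramos and 6 in Ramos640 (-3.44, interval from -5.10 to -2.44). Its relatives CRTC1 (301 and 288 reads, log2 fold change 0.32) and CRTC2 (1703 and 1504 reads, 0.20) had intervals above 0, but relative to the GC trend they were at 0.12 and -0.0037. CREB5, a relative of ATF2, had 882 and 236 reads (-1.52, interval from -1.73 to -1.31). The values of CRTC3 and CREB5 relative to the GC trend were -3.56 and -1.25. Among the 5 EGR and NR4A relatives and NAB corepressors, 2 had at least 10 reads and both were within 1.5-fold. NAB1, a corepressor of EGR1 and EGR2, had 1260 and 711 reads (-0.44, interval from -0.58 to -0.31), and relative to the GC trend it was at -0.20. Serum response factor and its cofactors had 1 of 6 genes past the limit. ELK3, which represses serum response elements until it is phosphorylated, had 161 and 82 reads (-0.59, interval from -0.99 to -0.20), just past the limit, and it was within the limit relative to the GC trend (-0.44).

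The kinases between the receptor and the factors were mixed. Of 15 genes of the RAS, RAF, MEK, ERK and RSK steps, 2 were higher and 1 was lower by more than 1.5-fold. Of all genes with at least 10 reads, 14.6% were higher and 17.3% lower by as much. The RAF kinase ARAF had 1507 and 1977 reads (log2 fold change 0.77) and the GTPase HRAS 1155 and 1485 (0.74), while RPS6KA3, which encodes the CREB kinase RSK2, had 1497 and 637 (-0.85). The median of the list, 0.047, was -0.033 with total counts. Relative to the GC trend the 3 values were 0.57, 0.57 and -0.55, all within the limit. Of 10 JNK and p38 kinase genes with at least 10 reads, 3 were lower and none was higher, with a median of -0.31. All 10 had at least 100 reads, and of all genes with that many reads 12.6% were lower and 9.94% higher. MAPK11, which encodes p38β, had 162 and 49 reads (-1.33), MAPK13, which encodes p38δ, had 960 and 311 (-1.24), and MAPK8, which encodes the JUN kinase JNK1, had 455 and 229 (-0.61). The interval of each lay below 0, and relative to the GC trend MAPK8 was at -0.28. The 3 ubiquitin ligases of JUN were within 1.5-fold, with a median of 0.17. RFWD2, which encodes COP1, was at -0.27 with an interval below 0 (-0.38 to -0.16), and FBXW7 (0.17) and ITCH (0.25) had intervals above 0.

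Other immediate early genes did not share one direction. Of 16 with at least 10 reads, 2 were lower and 1 was higher by more than 1.5-fold, and their median log2 fold change was -0.037. IER2 had 897 and 385 reads (-0.84, interval from -1.02 to -0.67), and GADD45A, a growth arrest gene, 664 and 858 (0.75, interval from 0.60 to 0.90). The second gene that was lower, IER3, had 66 and 24 reads. Of 6 early activation genes of B cells with at least 10 reads, CD69 (353 and 99 reads, -1.45) and the costimulatory ligand CD86 (465 and 159 reads, -1.16) were lower and the cytokine gene LTA (285 and 362 reads, 0.72) was higher. Relative to the GC trend LTA was at 0.53, within the limit. CCL3 and CCL4, chemokine genes induced by B-cell receptor signalling, had no reads in either library, like EGR3. Among all genes with at least 10 reads, 17.3% were lower and 14.6% higher by more than 1.5-fold.

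**Figure D5:**
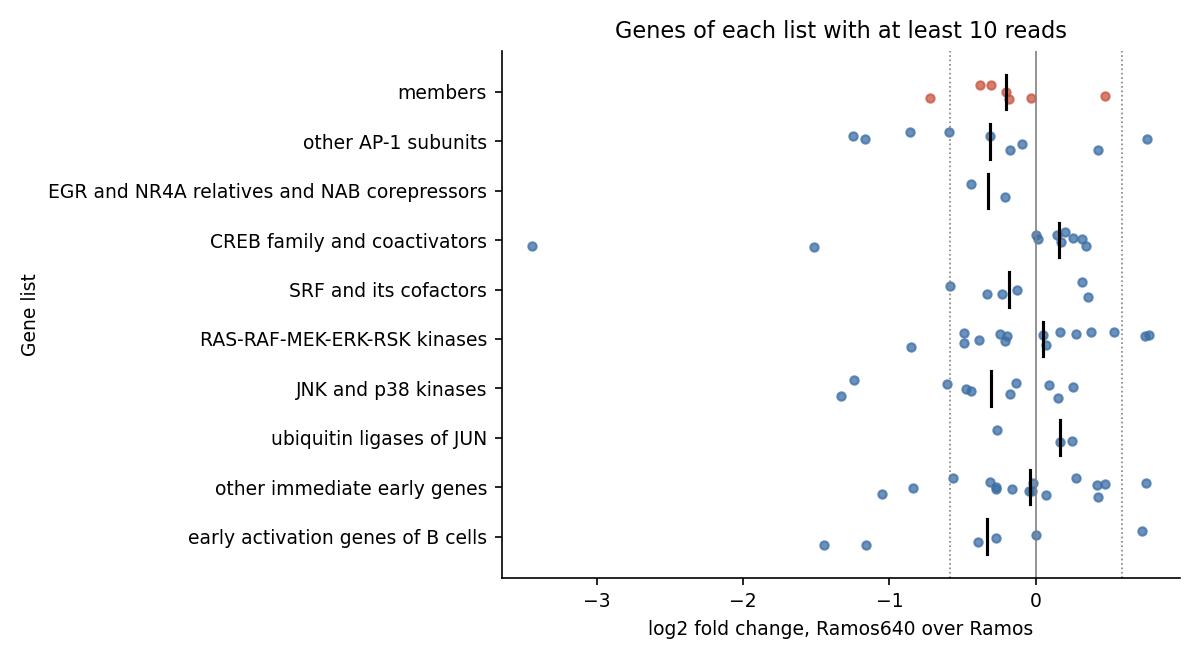
Log2 fold change of Ramos640 over Ramos for the genes of each list with at least 10 reads (members in red, other lists in blue). Black bars are list medians and dotted lines mark 1.5-fold. The members lie between -0.72 and 0.47, and CRTC3, at -3.44, lies furthest from 0.

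Some reads of the members cannot be assigned with certainty, since the counting is not stated to use the strand. FOSB overlaps ERCC1 on the opposite strand, which had 1413 and 2004 reads, against 46 and 31 for FOSB. JUNB overlaps HOOK2 (354 and 172 reads) and CREB1 overlaps METTL21A (1046 and 693 reads), both on the opposite strand. In the annotation NR4A1 also overlaps the antisense gene NR4A1AS, CREB1 and EGR3 each overlap a long noncoding RNA on the opposite strand, and EGR2 overlaps one on its own strand, none of them matched to a row of the count table. Their part in the values of the members was not tested.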

How the data were processed

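RNA-seq was analysed for 1 Ramos and 1 Ramos640 library. The authors removed adaptor sequences from Ion Proton reads, aligned them to GRCh37 with MapSplice (v2.1.6) and deposited read counts per gene without normalization. The counting program, its annotation and its use of strand are not given in the sources used here. Of 37122 rows, 28 carry a spreadsheet number for a gene name and were kept. Groups came from the sample titles. The members and lists were chosen with earlier results of these data known. Counts were scaled by median-of-ratios size factors (numpy 2.4.6), log2 fold changes used a pseudocount of 1, and genes with at least 10 reads entered the counts of genes past 1.5-fold. Intervals (scipy 1.17.1) cover counting error only. They were run on simulated counts that held counting error alone, which cannot show how they perform with variation between libraries. With 1 library per cell line no test between lines was possible. TMM factors (edgeR 4.0.16), total counts, pseudocounts of 0.1 and 10, minimums of 1 and 100 reads, removal of the running median over GC content and the longest transcript as length were the alternatives. Gene positions, lengths and GC content came from GENCODE v44lift37 on GRCh37, which matched 26511 rows by symbol and 2302 by an older symbol (84.2% of the genes tested, all 10 members). Promoters came from the RefSeq table, built on GRCh38.p14, and were placed on GRCh37 by exact match. All members were named. In each list the up to 3 largest differences in each direction with at least 100 reads, past 1.5-fold and with an interval off 0 were named, or else the gene with the most reads. JDP2, CRTC1, CRTC2, FBXW7, ITCH, NR4A2, NR4A3, FOSL1, FOSL2, BATF2, IER3, CCL3 and CCL4 were named after their values were seen.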

Additional observations from a re-analysis of the deposited data

How the results depend on the processing

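The log2 fold changes of the 7 members with at least 10 reads kept their sign in all 35 alternative values, and 33 stayed inside the counting interval. The exceptions were CREB1 (-0.016) and NR4A1 (-0.41) with the GC trend removed. With the main settings, 1 member was lower by more than 1.5-fold. This number was 0 with a pseudocount of 10, against 13.9% of all genes, and 0 with at least 100 reads, against 12.6%. With at least 1 read it was 2, by the addition of FOS, against 22.9% of all genes. With at least 1 read, 1 member (EGR2) was higher, against 20.2% of all genes. The median of the members stayed between -0.37 and -0.20. With the GC trend removed, some counts became 0. These were other AP-1 subunits higher, SRF cofactors lower, RAS to RSK kinases higher and lower, and B-cell activation genes higher. Of all genes, 12.5% were higher and 15% lower at that setting. With a pseudocount of 10, 2 other AP-1 subunits and 0 SRF cofactors were lower, and with at least 100 reads 1 other AP-1 subunit and 1 other immediate early gene. With at least 1 read, 1 EGR or NR4A relative was higher and that list's median was 0.037. The median of the RAS to RSK kinases was -0.033 with total counts. The settings with other minimums change which genes are counted, and for the other changes the cause was not tested. In the order per length, 4 of 18 ranks changed with the longest transcript as length, those of JUN (6), FOSB (5), FOS (7) and EGR1 (8) in Ramos. No paired analysis was possible because each cell line has 1 library, and for the same reason no library could be left out. Depth limits FOS, EGR1, EGR2, EGR3 and JUN, with 48 reads or fewer in the 2 libraries together.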
